A study of Arabidopsis thaliana with 16 samples.

Results

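The genes described here are the photosynthesis genes that Arabidopsis thaliana carries in its plastid genome. They were chosen as probe sets annotated to 1 plastid-encoded gene whose symbol starts with psa, psb, pet, atp, ndh or rbc, and 43 of the 22746 probe sets without controls met that rule. They comprised 5 genes of photosystem I, 15 of photosystem II, 6 of the cytochrome b6f complex, 6 of the ATP synthase, 10 of the NAD(P)H dehydrogenase-like (NDH) complex and rbcL, the large subunit of Rubisco. Of the family, ndhB had no probe set of its own. Here that means a probe set annotated with a single gene symbol and gene identifier, as 13513 of the 22746 were. All samples were whole wild-type Col seedlings grown for 12 days in liquid medium under long days, kept in darkness for 1 h and then pretreated with hydrogen peroxide (H2O2), an oxidant, for 30 min in the dark. They then received 1 µM epi-brassinolide (BL), a brassinosteroid growth hormone, or the ethanol that carried it (solvent), for 1 h in the dark with the H2O2 still present. The 16 Affymetrix arrays form 12 groups: BL at 0 mM and solvent at 0 mM with 3 arrays each, and BL and solvent at 1, 5, 25, 50 and 100 mM with 1 array each. The labels number the replicates at 0 mM but do not say that they came from separate cultures, so p-values measure only the spread between these arrays, which may be technical.

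Plastid genomes descend from that of a cyanobacterium, and most of their genes are transcribed in clusters into long RNAs that are then cut, spliced and trimmed. The proteins meet nuclear-encoded partners in the thylakoid complexes that split water, carry electrons, pump protons and make ATP, and in Rubisco, which fixes carbon dioxide. In green seedlings these RNAs are abundant, and their amount depends on processing and stability as well as on transcription. A plastid RNA carries a poly(A) tail mainly as a mark for its breakdown, whereas the one-cycle labelling kit named in the labels starts cDNA at poly(A). How this bears on the values was not tested.

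Values are GCRMA log2 signals, on which 1 unit is a doubling, and a signal of one probe set is not compared with that of another as an amount of RNA. A probe set entered the tests when it reached 5 on at least 2 of the 16 arrays, as did 13140 probe sets and all 43 members. The value 5 was reached on all 16 arrays by 41 members, on 11 arrays by ndhF and on 10 arrays by petD, which reached it on only 1 of the 6 arrays at 0 mM. Calls use limma with Benjamini-Hochberg adjustment over the 13140 probe sets at an adjusted p under 0.05.

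Solvent control replicate 3 at 0 mM stood apart. Its correlation with the other 0 mM arrays across the probe sets tested was 0.816 to 0.907, against 0.958 to 0.990 among those others. It was the lowest of the 6 arrays for 27 of the 43 members. BL replicate 3 at 0 mM was the lowest for 11 members. Over the members, its median difference from the other 0 mM arrays was -0.37, against -0.39 for solvent control replicate 3. For these genes both arrays were thus low at 0 mM. The BL array and the solvent array of a dose above 0 mM correlated at 0.988 to 0.995. Of the markers listed for shoot and root, RCA (Rubisco activase) had signals of 13.7 to 14.8 and PYK10 (a root glucosidase) 12.0 to 14.1 over the 16 arrays, so RNA of both organs was detected. The other 4 shoot markers listed had no probe set of their own by the annotation used, which does not show that the array lacks them. The 3 other tested root genes fell at 100 mM, with log2 changes of -4.77 for AT4G26010, -3.94 for AT1G34510 and -3.50 for AT1G30870, while PYK10 changed by 0.73 and was not called. AT1G34510 had 2.12 on both arrays at 100 mM, close to the lowest signal on the arrays, so the size of its change is not fixed. Of the 4 tested root markers, 3 were already called down at 1 mM (median change -2.62). At 0 mM, solvent control replicate 3 had 12.0 for PYK10, where the other arrays had 13.4 to 13.7. It had 6.61 for AT4G26010 (others 7.66 to 8.30), 4.16 for AT1G30870 (6.79 to 8.07) and 2.87 for AT1G34510 (5.62 to 7.46). The part of these genes in the results was not tested. In whole seedlings, fewer cells of a type and less RNA per cell cannot be told apart.

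At 100 mM H2O2 against 0 mM, 12 of the 43 members rose, 8 fell and 23 were not called, where 8.24% of all probe sets tested rose and 7.26% fell. The largest rises were in petD, petN and ndhF and the largest falls in ndhA, psbE and psaA. The median change of the members was -0.01, as it was for all probe sets tested. By complex, 3 of 6 cytochrome b6f genes rose and 0 fell, 5 of 10 NDH genes rose and 2 fell, 3 of 15 photosystem II genes rose and 4 fell, 1 of 5 photosystem I genes rose and 1 fell, 0 of 6 ATP synthase genes rose and 1 fell, and rbcL was not called. Without solvent control replicate 3, 13 rose and 12 fell, and all 20 calls were among those 25, but the share of all probe sets called was then 38.3%. The call was lost without the BL array at 100 mM for atpB, ndhE, ndhF, ndhH, ndhI, petG, psaA, psbB and psbJ, which left 11 (4.37% of all probe sets), and without the solvent array at 100 mM for ndhE, ndhI, petG, psaA, psbB, psbJ and psbL, which left 13 (3.31%). The call of psbJ was lost in 13 of the 16 fits that left out 1 array.

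**Figure D1:**
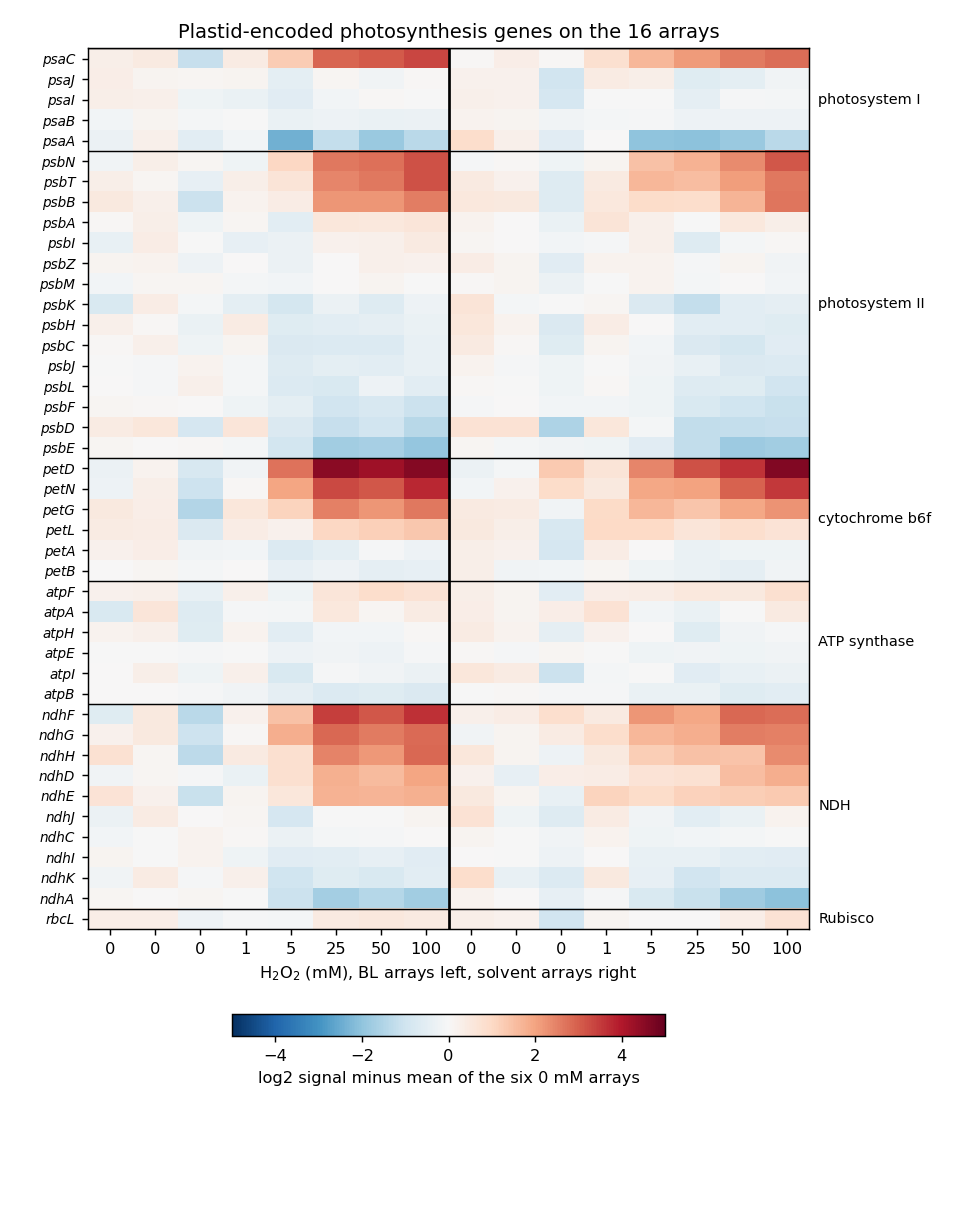
Log2 signal of the 43 genes (rows, grouped by complex) on the 16 arrays (columns, BL left and solvent right, H2O2 dose rising), minus the mean of the 6 arrays at 0 mM. Colour runs from lower to higher than that mean, and in photosystem I, photosystem II and NDH genes that rose (psaC, psbN, ndhF) stand beside genes that fell (psaA, psbE, ndhA).

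The count of calls by dose was 0 at 1 mM, 12 at 5 mM, 19 at 25 mM, 19 at 50 mM and 20 at 100 mM. At 1 mM, limma called 0 members where it called 20.1% of all probe sets (9.6% up and 10.5% down), 0 members had an unadjusted p under 0.05, and every alternative fit run also called 0. The members' changes at 1 mM ran from -0.22 to 0.75, with a median of 0.12 against -0.10 for all probe sets tested. At 5 mM, 7 rose (9.75% of all probe sets) and 5 fell (13.5%, and 23.2% in either direction). The largest rises at 5 mM were petD with 2.58, petN with 1.95 and ndhF with 1.83, and the largest falls were psaA with -2.22, ndhA with -0.91 and psbE with -0.74. Without the BL array at 5 mM 3 calls were left, without its solvent array 4, and without solvent control replicate 3 there were 22, where 6.69%, 7.34% and 45.5% of all probe sets were called. At 25 mM, 12 rose (8.19%) and 7 fell (7.66%), and at 50 mM, 12 rose (7.4%) and 7 fell (7.08%). The members' medians at 5, 25 and 50 mM were -0.19, -0.22 and -0.07, against -0.10, -0.05 and -0.03 for all probe sets tested. Leaving out the BL array of the dose left 6 calls at 25 mM (2.28% of all probe sets) and 8 at 50 mM (2.39%), where leaving out the solvent array left 9 (3.81%). Each dose was set against the same 6 arrays at 0 mM, so these counts are not independent of one another. At 1, 5, 25, 50 and 100 mM, both arrays lay above all 6 for 1, 10, 14, 15 and 15 members. Of all probe sets tested, 12.3%, 12.9%, 13.6%, 13.4% and 13.3% did. Both arrays lay below all 6 for 2, 9, 12, 12 and 10 members, against 17.1%, 18.8%, 15.4%, 14.6% and 12.7% of all probe sets. The share that did so at every dose from 5 mM up was not counted.

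Within the 10 arrays given H2O2, the 0 mM arrays, and so solvent control replicate 3, play no part. A slope over log2(1 + dose), printed as the fitted change between 1 and 100 mM, rose in 14 members and fell in 12, where 22.2% of all probe sets rose and 16.2% fell. The members' median was -0.02 and that of all probe sets tested was 0.06. The split by complex was 3 up and 1 down in cytochrome b6f, 5 and 3 in NDH, 3 and 7 in photosystem II, 1 and 0 in photosystem I, 1 and 1 in the ATP synthase, and rbcL up. Without the BL array at 1 mM the slope was called in 17 members, and in 29.8% of all probe sets against 38.4% with it. The calls of ndhE, ndhI, ndhK, petB, psbC, psbH, psbJ, psbL and rbcL were lost. Of the 26 slope calls 16 held without any single array, and atpF was lost without either 100 mM array or the 50 mM BL array.

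Cytochrome b6f passes electrons from plastoquinol to plastocyanin and pumps protons. petD encodes its subunit IV. At 0 mM it had 4.45, 4.90 and 3.94 with BL and 4.47, 4.64 and 6.07 with solvent. With H2O2 it had 4.57 (BL) and 5.40 (solvent) at 1 mM, 7.45 and 7.20 at 5 mM, 9.26 and 7.95 at 25 mM, 8.996 and 8.35 at 50 mM, and 9.34 and 9.36 at 100 mM, BL first in each pair. Every array from 5 mM up lay above all 6 at 0 mM, and the 1 mM arrays lay among them. The change at 100 mM was 4.60 (SE 0.50, limma adjusted p = 0.000191), and the slope was 4.06 (SE 0.49). Because petD passed the filter through its H2O2 arrays, the fit with no filter bears on this call, and there the limma adjusted p was 0.00115. No fold is given against signals that lay mostly under the filter value.

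petN, a small subunit of the same complex, had 7.47, 8.01 and 6.69 with BL and 7.59, 7.93 and 8.66 with solvent at 0 mM. It had 7.78 (BL) and 8.20 (solvent) at 1 mM, 9.69 and 9.67 at 5 mM, 11.04 and 9.75 at 25 mM, 10.82 and 10.66 at 50 mM, and 11.50 and 11.28 at 100 mM. From 5 mM up it did not overlap with 0 mM. The rise at 100 mM was 3.67 (SE 0.43, adjusted p = 0.000353 with limma), or 12.7-fold. petG, another small subunit, rose by 2.45 at 100 mM. The other 3 genes of the complex were not called there: petL changed by 1.02, petA (cytochrome f) by -0.23 and petB (cytochrome b6) by -0.30. Only petB of these was called in the slope, at -0.36 (SE 0.13), which is small beside the rises.

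The NDH complex feeds electrons from ferredoxin back into the plastoquinone pool. ndhF, a membrane subunit, had 3.97, 5.10 and 3.24 with BL and 4.85, 4.96 and 5.44 with solvent at 0 mM. It then had 4.80 (BL) and 5.06 (solvent) at 1 mM, 6.05 and 6.78 at 5 mM, 8.07 and 6.54 at 25 mM, 7.71 and 7.46 at 50 mM, and 8.25 and 7.38 at 100 mM. All 8 arrays from 5 mM up were above the 0 mM arrays. The change at 100 mM was 3.22 (SE 0.56, limma adjusted p = 0.00355). The membrane subunits ndhG (2.67), ndhD (1.89) and ndhE (1.55) and the peripheral subunit ndhH (2.63) rose as well at 100 mM.

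ndhA, also a membrane subunit, went the other way. At 0 mM it had 12.68, 12.60 and 12.66 with BL and 12.76, 12.59 and 12.15 with solvent. Values were 12.54 (BL) and 12.52 (solvent) at 1 mM, 11.50 and 11.83 at 5 mM, 10.88 and 11.45 at 25 mM, 11.15 and 10.80 at 50 mM, and 10.85 and 10.53 at 100 mM. Every array from 5 mM up was below the lowest 0 mM array. The change at 100 mM was -1.88 (SE 0.20, limma adjusted p = 0.000187). ndhI, an iron-sulfur subunit, fell by 0.58 there, and ndhC (-0.01), ndhJ (0.15) and ndhK (-0.61) were not called.

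ndhK, a peripheral subunit, was called in the slope alone, at -0.85 (SE 0.31, limma adjusted p = 0.049). It had 10.30, 10.91 and 10.45 with BL and 11.36, 10.14 and 9.81 with solvent at 0 mM. With H2O2 it had 10.76 (BL) and 10.99 (solvent) at 1 mM, 9.49 and 10.08 at 5 mM, 9.87 and 9.53 at 25 mM, 9.75 and 9.82 at 50 mM, and 9.97 and 9.80 at 100 mM. The arrays from 5 mM up lay below 5 of the 6 arrays at 0 mM and overlapped with solvent control replicate 3.

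**Figure D2:**
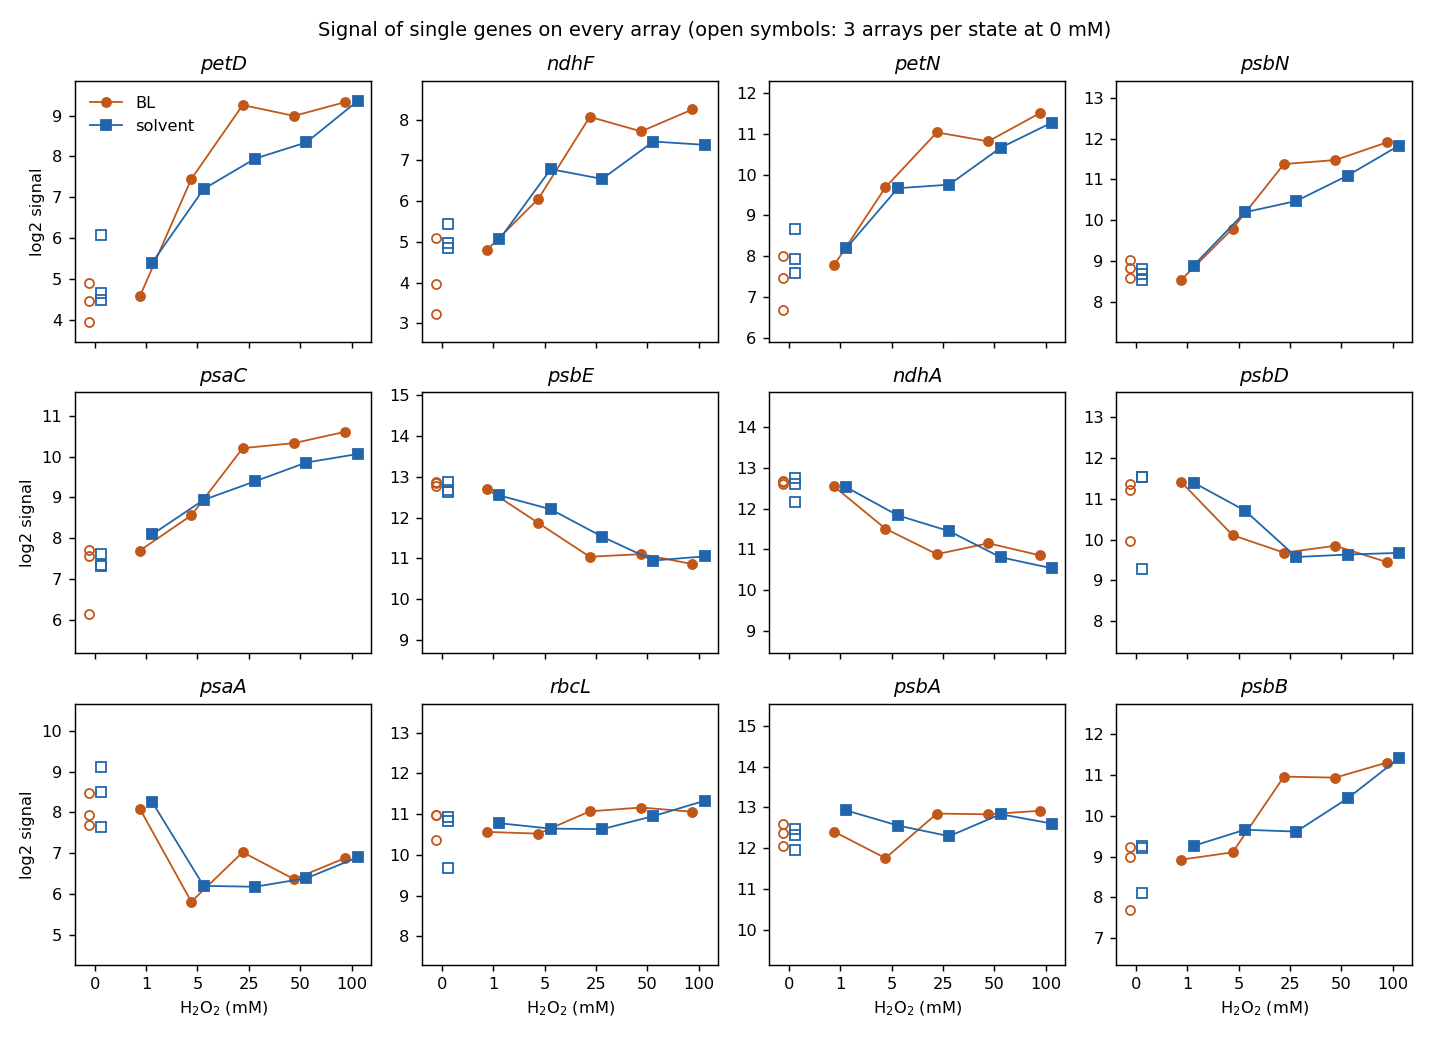
Log2 signal (vertical axis, each panel spanning the same number of units) against H2O2 dose in mM for 12 genes, with BL and solvent arrays as separate symbols and the 0 mM arrays open. petD, petN, ndhF, psbN and psaC lie above their 0 mM arrays from 5 mM up, while psbE and ndhA lie below them.

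Photosystem II oxidises water and reduces plastoquinone. psbN, needed in tobacco for the assembly of its reaction centre, had 8.57, 9.03 and 8.83 with BL and 8.67, 8.81 and 8.52 with solvent at 0 mM. It had 8.53 (BL) and 8.88 (solvent) at 1 mM, 9.79 and 10.19 at 5 mM, 11.37 and 10.47 at 25 mM, 11.47 and 11.09 at 50 mM, and 11.90 and 11.83 at 100 mM. From 5 mM up no array overlapped with 0 mM. The change at 100 mM was 3.13 (SE 0.23, limma adjusted p = 1.9e-05), an 8.75-fold rise.

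psbT, a small subunit, had 8.63, 8.44 and 7.92 with BL and 8.80, 8.57 and 7.70 with solvent at 0 mM. Its H2O2 values were 8.65 (BL) and 8.79 (solvent) at 1 mM, 8.99 and 9.99 at 5 mM, 10.80 and 9.88 at 25 mM, 10.99 and 10.44 at 50 mM, and 11.53 and 10.98 at 100 mM. These lay above all 0 mM arrays from 5 mM up, and the change at 100 mM was 2.92 (SE 0.37). psbB, the core antenna protein CP47, rose by 2.61 at 100 mM.

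Both subunits of cytochrome b559 fell. psbE, its alpha subunit, had 12.87, 12.78 and 12.85 with BL and 12.88, 12.68 and 12.62 with solvent at 0 mM. It had 12.70 (BL) and 12.55 (solvent) at 1 mM, 11.87 and 12.20 at 5 mM, 11.04 and 11.53 at 25 mM, 11.10 and 10.95 at 50 mM, and 10.86 and 11.05 at 100 mM. From 5 mM up every array was below 0 mM, and the change at 100 mM was -1.83 (SE 0.15, limma adjusted p = 6.8e-05).

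psbF, the beta subunit, had 14.22, 14.19 and 14.17 with BL and 14.09, 14.17 and 14.02 with solvent at 0 mM. It had 13.93 (BL) and 14.00 (solvent) at 1 mM, 13.67 and 13.93 at 5 mM, 13.18 and 13.40 at 25 mM, 13.35 and 13.16 at 50 mM, and 13.07 and 13.03 at 100 mM. Its arrays with H2O2 all lay below those without, and at 100 mM the change was -1.09 (SE 0.12). The small subunits encoded beside them fell too at 100 mM, psbL by 0.75 and psbJ by 0.52. psbL had 11.41, 11.33 and 11.64 with BL and 11.46, 11.37 and 11.18 with solvent at 0 mM. It had 11.29 (BL) and 11.44 (solvent) at 1 mM, 10.72 and 11.20 at 5 mM, 10.65 and 10.74 at 25 mM, 11.14 and 10.78 at 50 mM, and 10.87 and 10.44 at 100 mM. From 25 mM up psbL lay below all 0 mM arrays.

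The reaction centre of photosystem II is built on psbA (the D1 protein) and psbD (the D2 protein). psbA had 12.36, 12.60 and 12.06 with BL and 12.46, 12.31 and 11.96 with solvent at 0 mM. It had 12.40 (BL) and 12.92 (solvent) at 1 mM, 11.75 and 12.55 at 5 mM, 12.85 and 12.29 at 25 mM, 12.83 and 12.83 at 50 mM, and 12.92 and 12.60 at 100 mM. Only at 50 mM did both arrays lie above all 6 at 0 mM, and at every other dose at least 1 array overlapped with them or lay below. The change at 100 mM was 0.47 (95% confidence interval -0.09 to 1.02), and it was not called.

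psbD had 11.21, 11.37 and 9.97 with BL and 11.53, 11.53 and 9.28 with solvent at 0 mM. It had 11.41 (BL) and 11.40 (solvent) at 1 mM, 10.11 and 10.71 at 5 mM, 9.68 and 9.57 at 25 mM, 9.85 and 9.63 at 50 mM, and 9.45 and 9.67 at 100 mM. The H2O2 arrays from 25 mM up were below 5 of the 6 arrays at 0 mM but not below solvent control replicate 3. At 100 mM the change was -1.26 (SE 0.54, limma adjusted p = 0.142), and without that array it was -1.59 (SE 0.33, adjusted p = 0.00352 with limma). The slope, which does not use it, was -1.80 (SE 0.25, limma adjusted p = 0.000392).

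The other falls in the slope were psbH, a small phosphoprotein, at -0.80 (SE 0.21), and psbC, the core antenna protein CP43, at -0.70 (SE 0.23). psbH had 10.89, 10.68 and 10.27 with BL and 11.19, 10.80 and 9.90 with solvent at 0 mM. It had 11.01 (BL) and 10.97 (solvent) at 1 mM, 10.03 and 10.63 at 5 mM, 10.10 and 10.09 at 25 mM, 10.16 and 10.08 at 50 mM, and 10.29 and 10.01 at 100 mM. At 0 mM only solvent control replicate 3 lay under all the H2O2 arrays. The small subunits psbI, psbK, psbM and psbZ were not called at 100 mM or in the slope, with changes at 100 mM of 0.27, -0.35, -0.08 and 0.02.

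Photosystem I reduces ferredoxin. psaC, which carries its terminal iron-sulfur clusters, had 7.56, 7.71 and 6.14 with BL and 7.34, 7.60 and 7.32 with solvent at 0 mM. It had 7.69 (BL) and 8.09 (solvent) at 1 mM, 8.56 and 8.94 at 5 mM, 10.21 and 9.39 at 25 mM, 10.33 and 9.85 at 50 mM, and 10.61 and 10.06 at 100 mM. From 5 mM up it did not overlap with 0 mM, and the rise at 100 mM was 3.06 (SE 0.39, limma adjusted p = 0.000546).

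psaA, one of the paired reaction centre proteins, had 7.94, 8.47 and 7.70 with BL and 9.11, 8.50 and 7.64 with solvent at 0 mM. It had 8.08 (BL) and 8.25 (solvent) at 1 mM, 5.81 and 6.20 at 5 mM, 7.02 and 6.17 at 25 mM, 6.36 and 6.38 at 50 mM, and 6.88 and 6.90 at 100 mM. All arrays from 5 mM up were below all at 0 mM, yet the fall was larger at 5 mM, -2.22, than at 100 mM, -1.34 (SE 0.36, limma adjusted p = 0.0278), and the difference between these doses was not tested. The slope was -0.96 and was not called. The call at 100 mM was lost without the BL array of that dose, without its solvent array, and without BL replicate 2 at 0 mM (limma adjusted p = 0.0514). psaB, the partner of psaA, changed by -0.28 at 100 mM, and the small subunits psaI and psaJ by -0.06 each, none of them called.

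The ATP synthase makes ATP from the proton gradient. atpB, the beta subunit that holds the catalytic sites, had 14.97, 14.99 and 14.91 with BL and 14.94, 15.002 and 14.90 with solvent at 0 mM. It had 14.77 (BL) and 14.89 (solvent) at 1 mM, 14.50 and 14.60 at 5 mM, 14.28 and 14.60 at 25 mM, 14.35 and 14.35 at 50 mM, and 14.25 and 14.41 at 100 mM. Every H2O2 array was below the 0 mM arrays, but the change at 100 mM was only -0.62 (SE 0.10, limma adjusted p = 0.0026). The other 5 subunit genes were not called at 100 mM, with changes between -0.29 (atpI) and 0.75 (atpF), and atpF rose in the slope by 0.60.

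rbcL had 10.97, 10.98 and 10.37 with BL and 10.93, 10.83 and 9.68 with solvent at 0 mM. It had 10.56 (BL) and 10.78 (solvent) at 1 mM, 10.52 and 10.64 at 5 mM, 11.07 and 10.63 at 25 mM, 11.16 and 10.95 at 50 mM, and 11.06 and 11.33 at 100 mM. Only at 100 mM were both arrays above all at 0 mM. The change there was 0.57 (95% confidence interval -0.10 to 1.24), not called, while the slope of 0.58 (SE 0.16) was called up.

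Neighbours in the plastid genome went different ways. Genes were placed in the order of the RefSeq table of the TAIR10.1 assembly, which was used for names and order only. In the cluster psbB, psbT, psbN, psbH, petB and petD, 4 genes rose at 100 mM and psbH and petB, which lie between psbN and petD, did not, and both fell in the slope. psbN is known to lie on the opposite strand to the rest of that cluster. The labels do not state which strand the probes read, so the RNA of overlapping or antisense genes cannot be told apart. In the run ndhD, psaC, ndhE, ndhG, ndhI, ndhA and ndhH, 5 rose at 100 mM and the adjacent pair ndhI and ndhA fell. All 4 genes of the run psbJ, psbL, psbF and psbE fell, by 0.52, 0.75, 1.09 and 1.83 in that order. Beside members, rpoB (the polymerase beta subunit, next to petN) rose by 4.03 at 100 mM. There rps14 (a ribosomal protein, next to psaB) rose by 5.54 and rps15 (next to ndhH) by 2.68. At 0 mM rpoB had 4.39 to 5.65 and rps14 4.24 to 6.94, around the filter value of 5, so the sizes of their rises are not fixed. Of the 26 other plastid-encoded genes tested, 18 were not called at 100 mM. Among them were ycf3 (0.60, next to psaA), rpoA (0.36, next to petD), clpP (-0.11, next to psbB) and rpl32 (-0.02, next to ndhF).

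**Figure D3:**
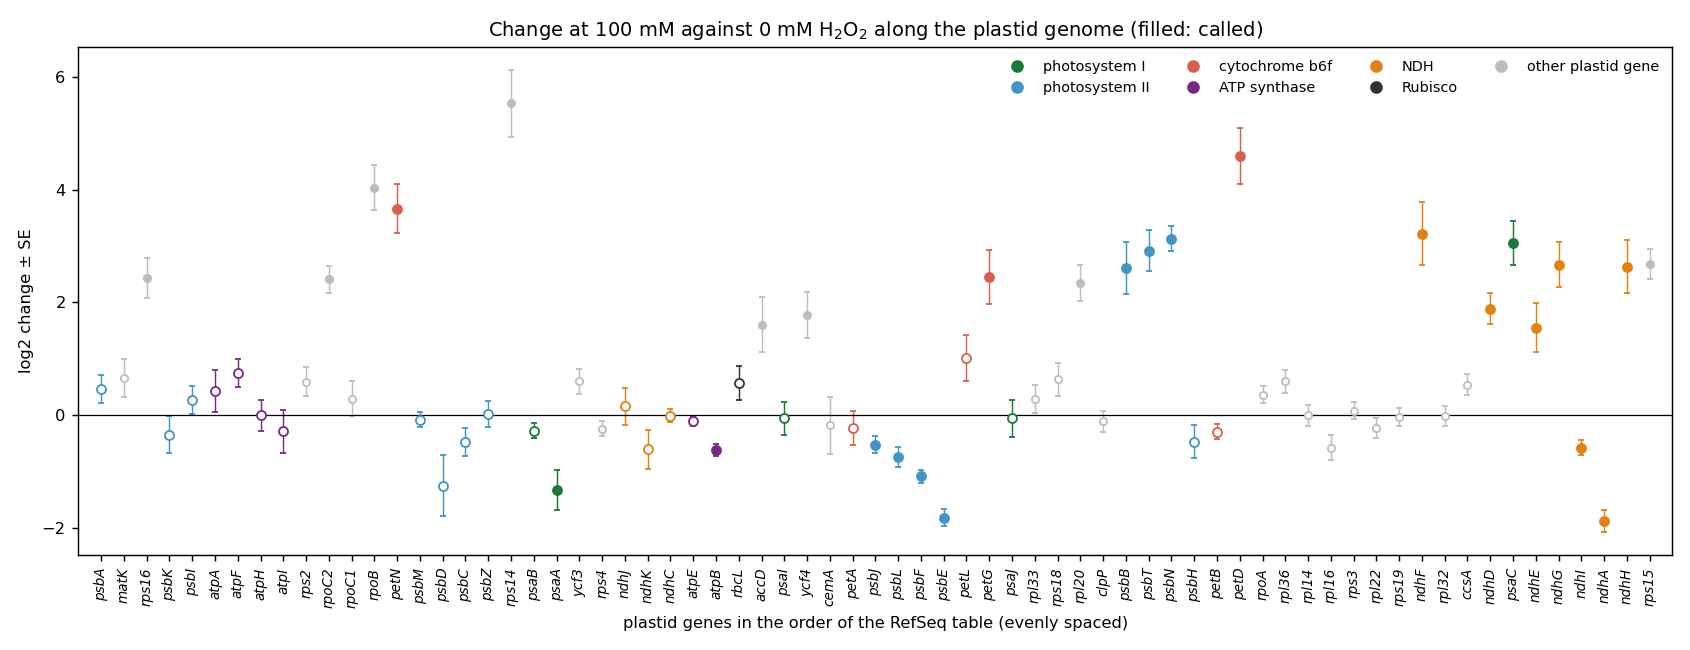
Log2 change at 100 mM against 0 mM (vertical axis, bars are ± SE of the limma fit) for plastid genes in their order along the genome (horizontal axis), filled where called and grey where the gene is not one of the 43. Rises and falls stand beside each other in the psbB and ndhD clusters, while psbJ, psbL, psbF and psbE all lie below 0.

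Of the other plastid-encoded genes, 26 had a probe set of their own that was tested, and 8 rose and 0 fell at 100 mM, with a median change of 0.56. Of all probe sets tested, 8.24% rose and 7.26% fell at that dose. Of 14 probe sets of mitochondria-encoded genes, several of them for nad1, 2 rose and 0 fell, with a median of 0.32. Nuclear partners in photosynthesis gave 0 calls of 14 at 100 mM with limma, with 0 at an unadjusted p under 0.05 and a median of 0.09. Most genes listed as such partners had no probe set of their own and were not looked at. Tested were 3 of 14 listed antenna proteins of photosystem II, 2 of 12 subunits of photosystem I and 3 of 12 of photosystem II. The rest were 2 of 4 subunits of the ATP synthase, 2 of 4 of NDH, 1 of 8 of electron transport and Rubisco activase (1 of 5 listed for Rubisco). Of 6 listed antenna proteins of photosystem I, 0 were tested. In the slope 2 of these 14 were called, where 38.4% of all probe sets were. The 2 were ATPC2 (an ATP synthase gamma subunit) at 0.59 and NDHL (an NDH subunit) at -0.60. No sigma factor or nuclear-encoded plastid polymerase on the list had a probe set of its own by the annotation used. Probe sets annotated otherwise were not looked at.

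An RNA quality measure moved with the dose. The mean 3′ minus 5′ signal of the actin, GAPDH and ubiquitin control probe sets was 0.324 ± 0.115 (SD, n = 6) at 0 mM, 0.392 at 1 mM, 0.357 at 5 mM, 0.522 at 25 mM, 0.538 at 50 mM and 0.666 at 100 mM (2 arrays each). Probe set signals also differed between the calls: at 0 mM the 12 members that rose at 100 mM averaged between 4.59 and 9.97, and the 8 that fell between 8.23 and 14.9. The part of either in the results was not tested.

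BL made no called difference to any of the genes. At 0 mM, 0 of the 43 members were called in BL against solvent, where 0.0228% of all probe sets were, and 0 members had an unadjusted p under 0.05 with limma. The changes ran from -0.98 (ndhF) to 0.36 (psaJ). Over the doses of 1 to 100 mM, limma called 0 members and 0% of all probe sets, again with 0 members at an unadjusted p under 0.05, and changes ran from -0.24 (petA) to 0.36 (ndhH). In the difference between these BL responses 0 members and 0.0609% of all probe sets were called (0.00761% up and 0.0533% down), and 0 members had an unadjusted p under 0.05. The values at 0 mM rest on 3 arrays a group, and they do not show that BL had no effect.

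The fitted change between 1 and 100 mM was larger, or less negative, with BL than with solvent in 41 of 43 members, and in 5473 of the 13140 probe sets tested. The median difference was 0.65 against -0.06 for all probe sets. Other organelle genes and nuclear photosynthesis genes showed the same direction. The slope was larger with BL in 26 of 26 other plastid-encoded genes (median difference 0.49). It was larger in 12 of 14 probe sets of mitochondria-encoded genes (0.45) and 13 of 14 nuclear photosynthesis genes (0.09). By limma 0 members and 0% of all probe sets were called (lowest adjusted p of the members 1.00), and 7 members (442 of all probe sets) had an unadjusted p under 0.05. The 2 members with the largest differences were ndhE, with 1.83 with BL and 0.26 with solvent (difference 1.57, SE 0.32), and petL, with 1.16 with BL and -0.32 with solvent (difference 1.48, SE 0.30). Their pairs of arrays show where this comes about: ndhE had 8.86 (BL) and 9.86 (solvent) at 1 mM and 10.53 and 10.05 at 100 mM, and petL had 9.67 and 10.29 at 1 mM and 10.63 and 9.999 at 100 mM.

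Array by array, BL lay below solvent at the low doses and above it at the high ones. BL was lower than solvent in 35 of 43 members at 1 mM (median difference -0.21) and in 38 at 5 mM (-0.44). It was higher in 34 at 25 mM (0.44), in 35 at 50 mM (0.17) and in 29 at 100 mM (0.12). The medians over all probe sets were 0.00, 0.04, -0.02, -0.01 and -0.04 at the 5 doses in order. Each difference is between 1 array with BL and 1 with solvent, so it has no test, and an array effect shared by all members cannot be told apart from an effect of BL. The 3′ minus 5′ measure with BL and with solvent was 0.394 and 0.391 at 1 mM, 0.409 and 0.305 at 5 mM, 0.535 and 0.510 at 25 mM, 0.511 and 0.566 at 50 mM, and 0.781 and 0.550 at 100 mM. It was higher with BL at 1, 5, 25 and 100 mM and lower with BL at 50 mM. The part of this measure in the BL differences was not tested.

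**Figure D4:**
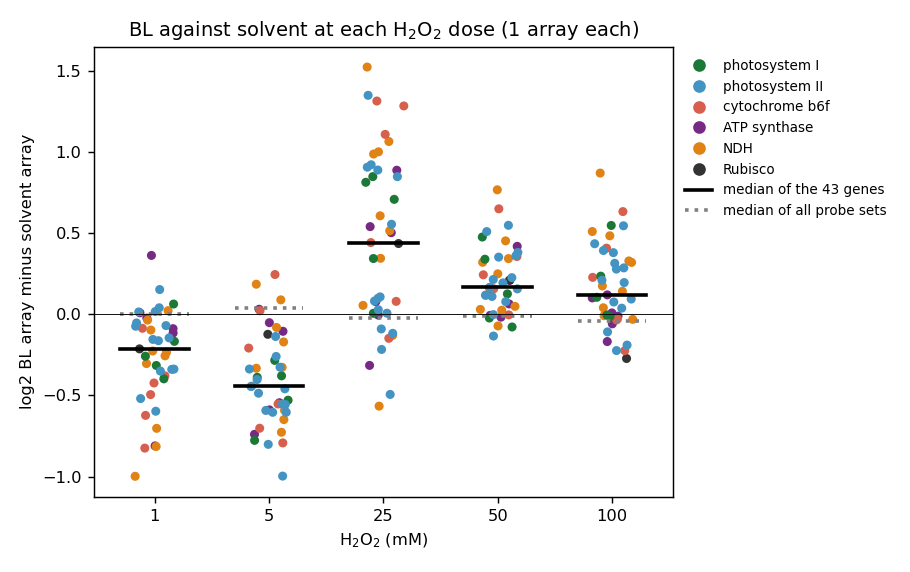
BL minus solvent difference in log2 signal (vertical axis) at each H2O2 dose in mM (horizontal axis) for the 43 genes, with the median of the members and that of all probe sets tested. The members' median is -0.21 at 1 mM and -0.44 at 5 mM, then 0.44, 0.17 and 0.12 at 25, 50 and 100 mM, while that of all probe sets stays between -0.04 and 0.04.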

How the data were processed

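Total RNA of whole seedlings was labelled with biotin by a one-cycle 3′ protocol and hybridised to Affymetrix arrays, per the labels' protocols. The deposited values are log2 signals per probe set, made by the authors with GCRMA, per the submitters' processing notes. The GCRMA version and settings and the annotation's genome build are not given in the sources used here. No further scaling was applied, and no deposited column was left out. There is no read depth for an array, so the number of arrays limits the precision.

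Tests used limma 3.58.1 in R 4.3.3 (lmFit, eBayes), with Benjamini-Hochberg adjustment over the 13140 probe sets that reached 5 on at least 2 arrays. All 16 arrays entered the dose fit, in which dose was a factor and BL additive (9 residual degrees of freedom). The slope on log2(1 + dose) used the 10 H2O2 arrays with additive BL (7 degrees of freedom), and the BL difference of slopes used 6. BL was tested on the 6 arrays at 0 mM (4 degrees of freedom), and over 1 to 100 mM and against its response at 0 mM with 8. The fits were tested on simulated data.

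Values on every array are given for up to 6 called members in each direction at 100 mM and in the slope, up to 3 elsewhere, and psaA, psbA and rbcL; neighbours and members that bear on a result were added. The members and lists were chosen with earlier results of these data known. Alternatives were no filter, median-centred arrays, another prior, the replicate number as a block, first replicates only, and leaving out each array.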

Additional observations from a re-analysis of the deposited data

How the results depend on the processing

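Above 0 mM each group holds 1 array, so a dose call rests on 2 arrays and the lone array is assumed to vary like the others. Leaving out 1 array moved the members called at 5 mM between 3 (without the BL array of that dose) and 22 (without solvent control replicate 3), with 4 without the 5 mM solvent array. The share of all probe sets called moved too, at 6.69% and 45.5% in the first pair of these fits. At 25 mM the range was 6 (without its BL array) to 26, at 50 mM 8 (without its BL array, 9 without its solvent array) to 27, and at 100 mM 11 (without its BL array, 13 without its solvent array) to 25, each highest count being without solvent control replicate 3, where 37.5%, 34.9% and 38.3% of all probe sets were called at 25, 50 and 100 mM. The slope gave 17 (without the 1 mM BL array) to 28 (without the 5 mM BL array), where 29.8% and 37.4% of all probe sets were called. Calls at 100 mM held without any single array for psaC, psbE, psbF, psbN, psbT, petD, petN, ndhA, ndhD and ndhG. Counts at 5, 25, 50 and 100 mM and in the slope were 12, 17, 18, 17 and 19 with no filter, 12, 20, 21, 20 and 26 with median-centred arrays, and 14, 19, 21, 20 and 27 with a trended robust prior, all within 1.5 times the counts reported. In the same order, 11.9%, 7.95%, 7.46%, 7.83% and 18.9% of all probe sets were called with no filter. These shares were 22.7%, 17.9%, 15.8%, 18.2% and 37.2% with median-centred arrays and 23.5%, 16.3%, 14.9%, 15.6% and 39.1% with the trended robust prior. Median-centring moved the median slope of all probe sets by -0.10. With first replicates only the 4 dose counts were 16, 24, 23 and 24. Of all probe sets, 39.5%, 31.1%, 29.8% and 31.1% were called in these fits. Same-number correlations of deviations at 0 mM were 0.18, 0.11 and -0.07, and those of other pairs ran from -0.23 to 0.08. With 3 arrays a group, they do not decide whether the numbers pair the samples. With the replicate number as a block the 4 dose counts were 10, 16, 19 and 19. The shares of all probe sets called were then 20.2%, 13.9%, 12.6% and 13%. The 1 mM and BL comparisons gave 0 under every setting run. Over 7783 values of single genes under alternatives, 0 called ones changed sign and 425 uncalled ones did; 227 lost a call and 83 gained one.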
